A study of Homo sapiens with 12 samples.

Results

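CD73, the product of NT5E, and 7 further genes of extracellular nucleotide breakdown and adenosine signalling were followed in T24 cells in which the small nuclear RNA U11 had been targeted or supplied in excess. The 8 genes were NT5E, ENTPD1, ENPP1, ADORA1, ADORA2A, ADORA2B, ADA and DPP4, and each was found once by its gene name among the 60504 genes of the deposited tables. They were selected on TPM in these libraries, with earlier results known, since NT5E was already known for its high TPM in the libraries labelled U11 knockout and for differing between the overexpression lines. TPM is Stringtie's transcript abundance, scaled for transcript length and to one total per library. Mean coverage per base ranks some of the members otherwise, so comparisons of level between genes are approximate.

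T24 is an established human bladder cancer cell line, and all 12 libraries were RNA-seq libraries of it. One set held 2 libraries labelled as a U11 knockout and 2 libraries of untreated T24 cells. The other set held 6 libraries labelled as U11 overexpression and 2 of untreated T24 cells. According to the study's methods, the knockout line was a single clone made with Cas9 and a pair of guide RNAs, and the overexpression lines carried a U11 plasmid and were also selected as single clones. The overexpression libraries fell under 79, 86 and 87 by line label, 2 libraries apiece, and the meaning of these labels is not given in the sources used here. The 3 lines were compared with the same 2 controls. The labels do not say that libraries came from separate cultures, so each P value measures only the spread between these libraries. Within a group of 2 that spread may be technical. The fit over all 6 overexpression libraries counted each as a separate replicate, with no term for line. Its spread therefore also holds differences between lines.

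Cells release ATP, and enzymes on the cell surface cut it stepwise. CD39, encoded by ENTPD1, removes phosphates from ATP and ADP, ENPP1 splits ATP to AMP and pyrophosphate, and CD73 turns AMP into adenosine. Adenosine acts on G protein-coupled receptors: the receptor encoded by ADORA1 lowers cyclic AMP, whereas those encoded by ADORA2A and ADORA2B raise it. Adenosine deaminase (ADA) ends the signal by making inosine, and DPP4, also called CD26, is a surface peptidase that can hold ADA at the membrane. In tumours the pathway is best known for dampening immune cells.

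The stretches before the start sites of the 3 members whose levels stood farthest from their controls were read from RefSeq promoter sequences (GRCh38.p14), which held 7 of the 8 members. A window of 250 bases before the start was searched on both strands for GGGCGG (GC box), TGACG (part of a cyclic AMP response element), ACGTG (core of a hypoxia element), the CCAAT box, the TATA box (spelled TATAAA) and the AP-1 site (spelled TGACTCA). Capitals mark the matches, and all stretches are on the plus strand. For NT5E and ADORA1 only 30-base stretches around the matches are shown, because an exon of another annotated transcript of the same gene overlaps the window. Both windows lie inside the genes as listed in the deposited tables, which begin at chr6:85449584 for NT5E and chr1:203090654 for ADORA1. They are therefore not the sequence upstream of the whole listed gene. For ENPP1 the 246 bases before the first annotated exon are shown.
NT5E, chr6:85449943-85449972: gggtcggatcgggTGACGtcgcgaacttgc
NT5E, chr6:85450010-85450039: cCCGCCCcggccttgacccgggccCCGCCC
ADORA1, chr1:203127678-203127707: gtgccgccgCCGCCCCCGCCCcctcccggt
ENPP1, chr6:131807770-131808015: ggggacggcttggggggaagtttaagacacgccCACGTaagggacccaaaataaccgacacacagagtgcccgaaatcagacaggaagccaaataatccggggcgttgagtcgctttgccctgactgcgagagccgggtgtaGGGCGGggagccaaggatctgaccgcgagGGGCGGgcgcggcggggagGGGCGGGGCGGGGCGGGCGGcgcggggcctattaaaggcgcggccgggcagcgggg

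The NT5E window held 1 TGACG and 2 GC boxes, the ADORA1 window 2 GC boxes, and the ENPP1 window 6 GC boxes, some of them overlapping, and 1 ACGTG. Among all 35116 RefSeq windows of this length, 42.6% held a GC box, 21.2% TGACG and 18.5% ACGTG. The CCAAT box, the TATA box and the AP-1 site, present in 32.0%, 10.7% and 4.20% of windows, had no match in these 3. The share of G and C was 75.2% before NT5E, 68.8% before ENPP1 and 63.2% before ADORA1, against a median of 58.0% over all windows. A match describes letters only.

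U11 itself, encoded by RNU11 and summed over its 2 entries, went against the knockout label, with 21.4 and 23.8 TPM in the untreated libraries but 31.6 and 37.4 TPM under the knockout label. In the overexpression set the controls held 0.0335 and 0.623 TPM, line 79 held 0.183 and 0.412, line 86 held 3.98 and 3.72, and line 87 held 61.9 and 53.6. By TPM, U11 was thus high in line 87, lower in line 86 and within the range of the controls in line 79. By quantitative PCR the study reports the opposite for the knockout, with less U11 than in untreated T24 cells, and more U11 with overexpression. Untreated cells of the 2 sets differed widely in U11 TPM, and how well these libraries capture this small RNA is not known. The TPM values therefore do not decide whether U11 was altered. Depth, read from the ratio of coverage to FPKM, ran from 9.07 to 15.3 gigabases per library. Replication-type histone genes summed to 27660 to 34280 TPM in the knockout set, against 103 to 180 TPM in the other, so levels cannot be compared freely across the sets. The cells carried epithelial and mesenchymal markers (KRT7 from 1085 to 6703 TPM, VIM from 1259 to 2887 TPM), with EPCAM at 2.32 TPM or below. Urothelial markers were mixed. PPARG ran from 18.88 to 54.55 TPM and GATA3 from 2.38 to 17.41 TPM. The uroplakins UPK1A, UPK1B, UPK2 and UPK3A stayed under 0.44 TPM and KRT20 under 0.05 TPM. The 7 leukocyte markers together reached 0.452 to 0.536 TPM in the knockout label and 0.553 to 0.723 in its controls, and 0.531 to 2.11 TPM in the overexpression label and 0.426 to 1.74 in its controls. Of the 5 endothelial markers, PECAM1, VWF, KDR and TEK stayed under 0.3 TPM in all libraries, whereas CDH5 reached 34.1 and 32.2 TPM in line 79.

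CD73 mRNA stood about 9-fold above its controls in the libraries labelled U11 knockout. NT5E (ENSG00000135318, chr6:85449584-85495791 in hg38, plus strand) was at 14.6 and 16.6 TPM among controls, against 145 and 135 TPM for the knockout label. The 2 groups lay far apart, and the values within each were close. The means were 15.6 ± 1.42 TPM (SD, n = 2) and 139.9 ± 6.98 TPM (SD, n = 2), and the difference on the log2(TPM + 1) scale was 3.09. The median gene of this comparison was higher by 0.11 on the same scale, and the NT5E difference was 2.98 above it. After median ratio scaling the median gene stood at -0.02 and the NT5E difference was 2.95. Mean coverage per base along the gene was 98.5 and 113 in the controls and 1041 and 1009 in the knockout label. In bulk RNA, more cells with the transcript and more transcript per cell cannot be told apart. As these TPM values brought the genes forward, they are given as a description with no test.

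ENPP1, the enzyme that makes AMP and pyrophosphate from ATP, also stood higher in the knockout label. ENPP1 (chr6:131808016-131895155, plus strand) was at 2.64 and 2.91 TPM among controls, against 7.92 and 5.54 TPM for the knockout label. The groups did not overlap, although the knockout libraries were less alike in TPM for ENPP1 than for NT5E. By mean coverage they were closer, at 55.0 and 50.8, against 23.7 and 24.1 in the controls. The means were 2.78 ± 0.189 and 6.73 ± 1.68 TPM (SD, n = 2 each), a ratio of 2.42 and a log2 difference of 1.02, or 0.91 above the median gene.

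CD39, which feeds CD73 with AMP, showed no such difference. ENTPD1 was at 0.972 and 1.09 TPM among controls, against 1.12 and 0.816 TPM for the knockout label, with the lowest and the highest of the 4 values both in the knockout label. Its mean coverage was under 1 in all 12 libraries, so its level is poorly measured. ADA, which removes adenosine, was at 7.29 and 5.90 TPM among controls, against 7.14 and 5.34 TPM for the knockout label, with overlapping groups and a log2 difference of -0.07.

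ADORA2B, the receptor gene with the highest TPM of the 3, was slightly lower in the knockout label. It was at 34.4 and 31.8 TPM among controls, against 29.0 and 27.6 TPM for the knockout label, and the groups did not overlap. The log2 difference was -0.22, or -0.32 against the median gene. ADORA1 was at 1.17 and 0.951 TPM among controls, against 0.176 and 0.208 TPM for the knockout label. The controls were the higher group for ADORA1, but mean coverage was at most 0.713 in these libraries.

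The remaining members lay near the lower end of measurement. ADORA2A was at 0.192 and 0.0556 TPM among controls, against 0.553 and 0.248 TPM for the knockout label. DPP4 was at 0.129 and 0.322 TPM among controls, against 0.0541 and 0.0605 TPM for the knockout label. For both genes the groups did not overlap at TPM values below 0.6, and neither passed the filter of 1 TPM in at least 2 libraries. ADORA1 did not pass it here either. Of the 5 members that passed, 2 (NT5E and ENPP1) lay past an unadjusted P of 0.05 and a 1.5-fold change, both higher, where 8.61% of all 14356 genes tested were called higher and 3.15% lower. Nothing is read from that count, since this contrast chose the genes.

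Markers of cell type moved with the same label. The 3 mesenchymal markers summed to 2334 and 2373 TPM in the controls, against 4917 and 5930 TPM for the knockout label, with VIM from 1259 to 1304 against 2096 to 2254 TPM and FN1 from 932 to 1014 against 2727 to 3572 TPM, while CDH2 overlapped. The 5 epithelial markers summed to 2047 and 2177 TPM in the controls, against 1817 and 2092 TPM. KRT7 overlapped, and EPCAM went from 0.821 and 1.23 to 0.0904 and 0.148 TPM. KRT18 (373.1 to 399.9 against 269.7 to 291.9 TPM) and KRT19 (150.7 to 157.6 against 90.28 to 92.85 TPM) were lower too. KRT8 was slightly higher (366.9 to 372.1 against 372.4 to 398.9 TPM). Of the urothelial markers, GATA3 was higher (2.38 to 2.929 against 4.671 to 5.607 TPM) and PPARG lower (28.16 to 28.43 against 18.88 to 23.07 TPM). The endothelial sum, almost all CDH5, was 4.84 and 4.96 TPM in the controls, against 0.122 and 0.16 TPM. The part of these differences in the values of NT5E and ENPP1 was not tested.

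**Figure D1:**
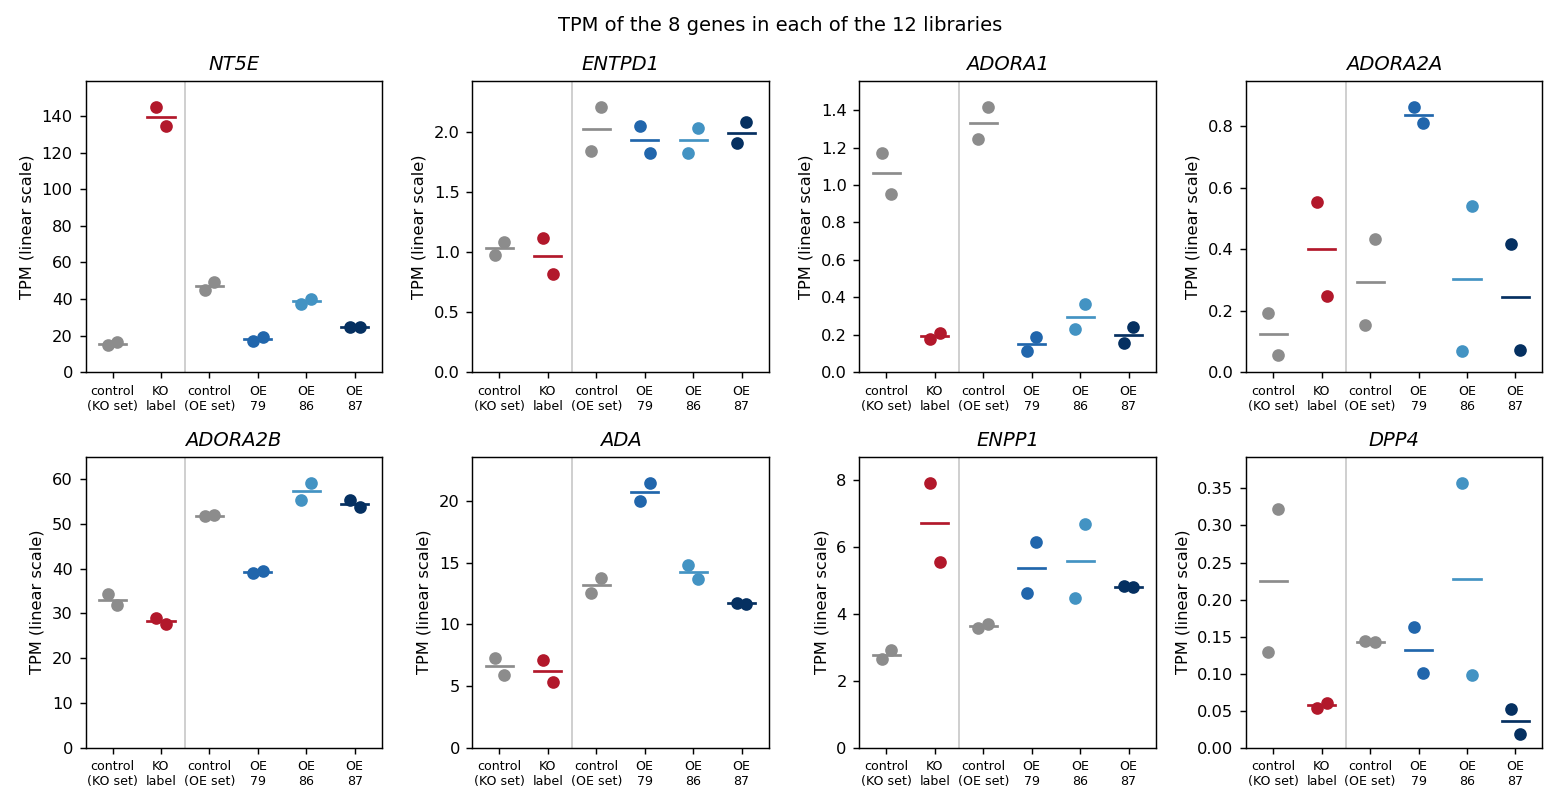
TPM of each of the 8 genes on a linear axis from 0, with 1 point per library and a short line at the mean of each group of 2; grey marks the controls of each set, red the knockout label and blue the 3 overexpression line labels. NT5E is near 140 TPM in the knockout label against about 16 in its controls, and ADORA1 is near 0.2 TPM in the knockout label and in each overexpression line, against more than 0.9 in all 4 controls.

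In the overexpression set, CD73 mRNA was lower than in the controls in all 6 libraries, to a different extent in each line. NT5E was at 44.9 and 49.1 TPM in the controls, at 16.9 and 19.4 TPM in line 79, at 37.3 and 40.3 TPM in line 86, and at 24.9 and 24.8 TPM in line 87. No overexpression library reached the controls, and the lines did not overlap each other. Over all 6 libraries, 2 from each of 3 lines, the mean was 27.3 ± 9.49 TPM (SD, n = 6) against 47.0 ± 2.98 TPM (SD, n = 2). On the log2(TPM + 1) scale the difference was -0.83. NT5E was already known to differ among these libraries, so this is a description with no test.

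Line by line, the NT5E difference on the log2(TPM + 1) scale was -1.33 in line 79, -0.89 in line 87 and -0.27 in line 86, the last of these under 1.5-fold. That the lines differ in NT5E was known beforehand, so the values by line are a description with no test. The 2 library number prefixes each held 1 control and 1 library of each line. Within them the mean difference over the 3 lines was -0.82 and -0.85. Line 79 was lowest for NT5E, then 87, then 86 (log2 range 1.06). Any relation to U11 was not tested. Endothelial CDH5 was highest in line 79 too, with a summed level of 34.2 and 32.4 TPM for the 5 markers there against 3.53 and 3.16 in the controls, and its part in the values of line 79 was not tested.

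ADORA1 was lower in each overexpression line than in the controls. It was at 1.25 and 1.42 TPM in the controls, and among the 6 overexpression libraries the lowest value was 0.114, the median 0.21 and the highest 0.362 TPM. All 6 lay below both controls. The difference on the log2(TPM + 1) scale was -0.94 over the 6 libraries, -1.02 in line 79, -0.85 in line 86 and -0.96 in line 87. Mean coverage of ADORA1 was 0.319 and 0.548 in the controls and at most 0.134 in the overexpression libraries, and the gene passed the filter only through the controls, where it is high, so no P value is given for it. With FPKM in place of TPM the log2 difference was -0.49, less than 1.5-fold, and with either control left out the gene was not tested.

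ADA, the adenosine-removing enzyme, rose in line 79 alone among the 3 lines. It was at 12.6 and 13.8 TPM among controls and at 20.0 and 21.5 TPM in line 79. Line 86 held 14.8 and 13.7 TPM and line 87 held 11.8 and 11.7 TPM, so that line 86 overlapped the controls and line 87 lay just below them. The log2 fold change was 0.62 ± 0.09 (SE, adjusted P = 0.00953) in line 79, 0.11 (95% CI -0.11 to 0.32) in line 86 and -0.15 (-0.37 to 0.06) in line 87. The difference between the lines was itself past the threshold in limma's F test, with a log2 range of 0.77 and an adjusted P of 0.00612. The members were selected on TPM in these libraries with earlier results known. The P values of ADA are therefore descriptive and not an independent test. Without control replicate 3 the value in line 79 was 0.56, and without line 79 replicate 3 it was 0.57, both under the fold threshold of 1.5.

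ADORA2B moved the other way in line 79. It was at 51.7 and 52.0 TPM in the controls, 39.0 and 39.5 TPM in line 79, 55.4 and 59.1 TPM in line 86, and 55.2 and 53.8 TPM in line 87. Line 79 was the only line below the controls, and the other two lay above them. The log2 fold change was -0.39 ± 0.07 (SE, adjusted P = 0.0164) in line 79, which is less than 1.5-fold, 0.14 (95% CI -0.02 to 0.30) in line 86 and 0.07 (-0.09 to 0.23) in line 87. Between the lines the log2 range was 0.53, with an adjusted P of 0.00621. These P values are descriptive too, since the members were selected on TPM in these libraries.

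ENPP1 was higher than in the controls in all 6 overexpression libraries. It was at 3.58 and 3.71 TPM in the controls, 4.62 and 6.16 TPM in line 79, 4.49 and 6.69 TPM in line 86, and 4.83 and 4.80 TPM in line 87. The lines overlapped each other. Mean coverage in line 86 was 16.8 and 18.0, closer together than its TPM values. The log2 fold change over the 6 libraries was 0.42 ± 0.16 (SE, unadjusted P = 0.0269, adjusted P = 0.733 in limma), under the fold threshold. An exact permutation test of the 6 against the 2 libraries gave P = 0.071 (two-sided), where the smallest value the design allows is 0.036. Both tests treat the 6 libraries as independent, although they are 2 from each of 3 lines. They also use the TPM values on which the members were selected, so they are descriptive. No difference between the lines was detected (adjusted P = 0.802). The value in line 86 was 0.48 (95% CI 0.03 to 0.94). It was 0.73, past both thresholds, without its replicate 1 and 0.24 without its replicate 3. In line 79 it was 0.45 (-0.01 to 0.91). It was 0.62, past both thresholds, without its replicate 1 and 0.28 without its replicate 3.

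ENTPD1 was nearly level across the overexpression set. It was at 1.84 and 2.20 TPM in the controls, and the 6 overexpression libraries ran from 1.82 to 2.08 TPM with a median of 1.97. The log2 fold change was -0.03 (95% CI -0.31 to 0.24). ADORA2A was at 0.154 and 0.434 TPM in the controls, at 0.862 and 0.813 TPM in line 79, at 0.0683 and 0.541 TPM in line 86, and at 0.419 and 0.0733 TPM in line 87. DPP4 stayed at 0.357 TPM or below in all 8 libraries. Neither gene passed the filter.

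Of the 6 members tested in this set, 2 (NT5E and ADORA1) were called lower and none higher over all overexpression libraries, where 1.16% of 15768 genes were called lower and 0.767% higher. In line 79, 2 members were lower and 1 was higher, against 5.52% and 2.43% of all genes. In line 86, 1 was lower (2.01% of all genes) and none higher (1.59%), and in line 87, 2 were lower (3.05%) and none higher (2.08%). Nothing is read from these counts, since NT5E was already known to differ among these libraries and ADORA1 entered the fit only through its level in the controls. The same 2 controls stand behind all of these values.

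**Figure D2:**
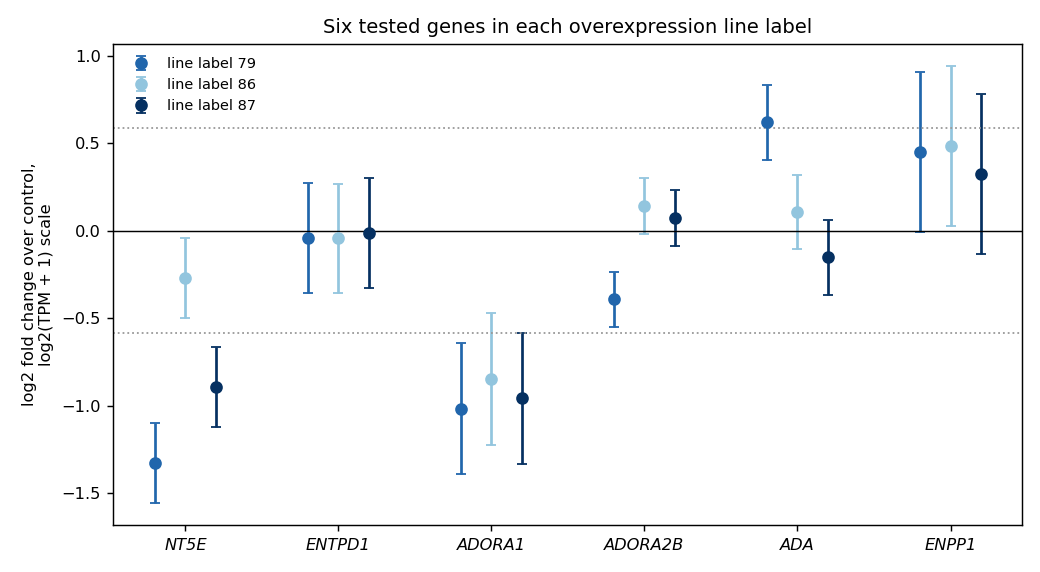
Log2 fold change over the 2 shared controls, on the log2(TPM + 1) scale, of the 6 members tested in each overexpression line label, with 95% confidence intervals from limma; dotted lines mark a 1.5-fold change in either direction. The points of NT5E and ADORA1 lie below 0 in each line, ADA is past 1.5-fold higher in line 79 only, and the intervals of ENTPD1 include 0 in each line. The intervals of NT5E and ADORA1 are not read as tests. NT5E was known beforehand to differ, and ADORA1 passed the filter only through the controls. Intervals of the other members are descriptive, since the members were selected on TPM in these libraries.

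The untreated T24 cells of the sets differed in level. NT5E was at 15.6 TPM on average in the controls of the knockout set and at 47.0 TPM in those of the overexpression set, and ADORA2B was at 33.1 and 51.8 TPM. After protein-coding genes other than histones were rescaled to the same total, the NT5E means were 37.6 and 49.9 TPM, in the same direction, whereas ADORA2B turned, with 80.0 TPM for the knockout set and 55.0 TPM for the overexpression set. ADA, ENPP1, ENTPD1 and ADORA1 turned as well under this rescaling. Set, library preparation and sequencing run cannot be told apart here, so no test was made.

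Among the members, ADORA2B had the highest TPM in both groups of controls and in each overexpression line. NT5E was next in the controls and in lines 86 and 87, while in line 79 ADA (20.7 TPM) came before NT5E (18.2 TPM). In the knockout label NT5E stood above ADORA2B. The ratio of NT5E to ADORA2B in TPM was 0.424 and 0.521 in the controls of the knockout set and 4.99 and 4.89 in the knockout label. It was 0.869 and 0.945 in the controls of the overexpression set, 0.433 and 0.491 in line 79, 0.673 and 0.682 in line 86, and 0.45 and 0.46 in line 87. In the controls ADA and ENPP1 followed, with means of 6.60 and 2.78 TPM in the controls of the knockout set and 13.2 and 3.65 TPM in those of the overexpression set. In the knockout label ENPP1 (5.54 to 7.92 TPM) and ADA (5.34 to 7.14 TPM) overlapped. ENTPD1 and ADORA1 were at about 1 TPM in the controls of the knockout set and overlapped, and ADORA2A and DPP4 were lowest there, also overlapping. Mean coverage gave another order in these controls. It was 1.04 and 1.43 for DPP4, 0.681 and 0.774 for ENTPD1, and 0.706 and 0.713 for ADORA1. The order of members is therefore one of TPM only.

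The wider handling of purines and adenosine was followed in 102 further genes. In the knockout label 53 of them could be tested, of which 6 rose and 2 fell past both thresholds, together 15.1%. This stands beside the 8.61% of all genes called higher and 3.15% called lower. Among the 6, PDE4B entered the fit only through the knockout libraries, where it is high. Of the 2 that fell, P2RY2 would not have entered it without the controls. The median log2 fold change was 0.15 over the 53 genes and 0.11 over all genes. With knockout replicate 1 left out, 3 rose.

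The 3 largest rises belonged to receptor coupling and the response to cyclic AMP. Of 11 tested genes of receptor coupling and cyclic AMP turnover, 2 rose. GNAQ, the alpha subunit that couples receptors to phospholipase C, was at 14.2 and 16.0 TPM among controls, against 37.9 and 34.6 TPM for the knockout label (log2 fold change 1.21 ± 0.11 SE, adjusted P = 0.0152). PDE4B, which breaks down cyclic AMP, was at 0.997 and 0.822 TPM among controls, against 3.09 and 2.75 TPM for the knockout label (1.04). Both sets of values were clear of their controls. PDE4B passed the filter only through the knockout libraries, where it is high, so no P value is given for it. Of 8 tested cyclic AMP response genes, 2 rose: SIK1, a kinase gene that cyclic AMP induces (1.12 ± 0.16, adjusted P = 0.029), and NR4A1, an immediate early nuclear receptor (0.89 ± 0.12, adjusted P = 0.0275).

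SIK1 was at 1.51 and 1.94 TPM among controls, against 5.44 and 4.42 TPM for the knockout label. NR4A1 was at 1.65 TPM in both controls and at 4.06 and 3.72 TPM in the knockout label. In neither gene did the groups overlap. PREP, a prolyl peptidase listed with the DPP4 family, rose from 20.7 ± 0.901 to 33.0 ± 3.68 TPM (SD, n = 2 each, adjusted P = 0.0465), 1 of 4 tested in its list. PANX2, of the pannexin channel family, had means of 1.16 and 2.27 TPM and an adjusted P of 0.0658, 1 of 4 tested genes of ATP and pyrophosphate release.

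A receptor and a salvage enzyme fell. P2RY2, the receptor for ATP and UTP and 1 of 4 tested P2 receptors, was at 2.59 and 2.49 TPM among controls. The knockout label held 1.08 and 0.753 TPM (log2 fold change -0.89). Without the controls, where it is high, P2RY2 would not have passed the filter, so no P value is given for it. APRT, which rebuilds AMP from adenine, was at 93.8 and 91.5 TPM among controls, against 51.3 and 46.1 TPM for the knockout label. It was 1 of 13 tested genes of adenosine and AMP metabolism, with a log2 fold change of -0.92 ± 0.10 (SE, adjusted P = 0.0185 in limma). Of the 8 tested intracellular nucleotidases none passed both thresholds, and 3 had an unadjusted P under 0.05. The single tested nucleoside transporter did not pass the fold threshold. None of the 12 other ectoenzymes that act on nucleotides passed the filter in this set.

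Over all overexpression libraries, none of the 59 tested genes of these lists passed both thresholds in limma, and 1 had an unadjusted P under 0.05. That gene was SLC29A1, the main equilibrative nucleoside transporter, with a control mean of 136.5 ± 5.12 TPM (SD, n = 2) and an overexpression mean of 164.4 ± 13.4 TPM (SD, n = 6) (log2 fold change 0.26 ± 0.10 SE, adjusted P = 0.705). It was named after its value was seen. ALPP, placental alkaline phosphatase and the only other ectoenzyme tested, also singled out after its values were seen, was at 1.86 to 2.84 TPM in the 4 libraries of one number prefix and listed at 0 in the 4 of the other, across controls and lines alike. The median log2 fold change was -0.03 over the 59 genes and -0.02 over all genes.

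**Figure D3:**
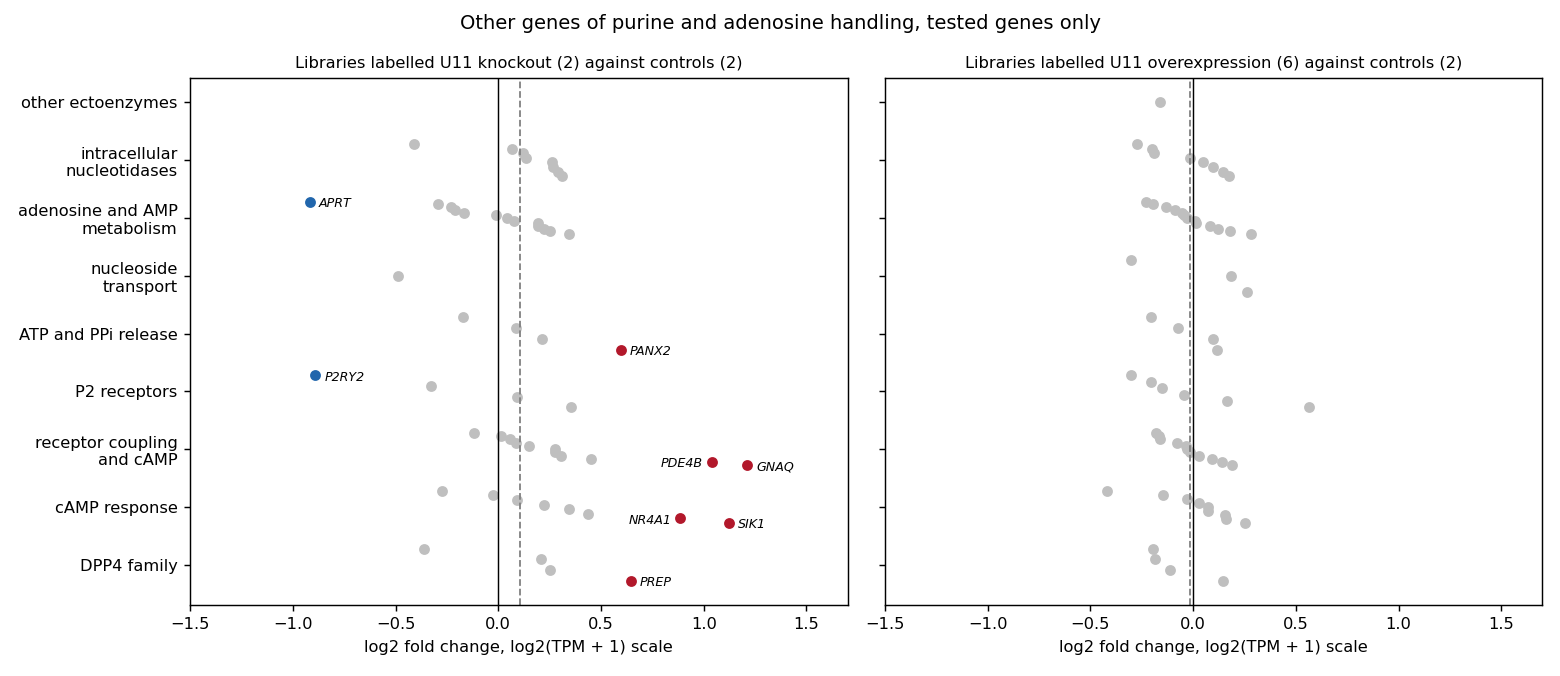
Log2 fold change, on the log2(TPM + 1) scale, of each tested gene of 9 lists around adenosine, with the knockout label on the left and the overexpression label on the right; red and blue points passed both thresholds upward or downward, grey points did not, and the dashed line is the median of all genes tested. In the knockout label 6 genes are red and 2 are blue, and in the overexpression label none is coloured.

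Line by line, 2 list genes rose and 3 fell in line 79, 8.48% of the 59, beside the 2.43% of all genes called higher and 5.52% lower. NT5C2, a cytosolic nucleotidase, fell from 67.1 to 42.8 TPM, the inhibitory G protein subunit GNAI1 from 26.6 to 16.5 TPM and the growth factor AREG from 9.63 to 4.79 TPM, with adjusted P values of 0.00962, 0.00697 and 0.00735. AK4, a mitochondrial adenylate kinase family member, rose from 17.9 to 29.6 TPM (adjusted P = 0.00538), and P2RY6, a receptor for UDP, from 0.411 to 1.37 TPM. In line 86 P2RY6 was at 1.89 and 1.43 TPM and was the 1 gene past both thresholds (log2 fold change 0.91). P2RY6 passed the filter only through lines 79 and 86, where it is high, so no P value is given for it. In line 87 none passed both, and 11 had an unadjusted P under 0.05.

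The lines differed among themselves in 19 of the 59 list genes (32.2%), where 14.6% of all 15768 genes tested passed the same F test and fold. After adjustment 17 remained under 0.05. P2RY6, counted in both, entered the fit only through lines 79 and 86. Among these 19 genes the ranges were largest for P2RY2 (log2 range 0.90; means of 1.20 TPM in line 79 and 3.10 in line 86), AK4 (0.89; 15.5 in line 87 and 29.6 in line 79), P2RY6 (0.88; 0.445 in line 87 and 1.66 in line 86) and AK1 (0.85; 37.4 in line 86 and 67.2 in line 87). By list, 3 of 8 intracellular nucleotidases, 4 of 13 genes of adenosine and AMP metabolism, 2 of 4 genes of ATP and pyrophosphate release, 3 of 6 P2 receptors, 2 of 11 genes of receptor coupling, 3 of 9 cyclic AMP response genes and 2 of 4 DPP4 relatives were among them. No ectoenzyme and no nucleoside transporter was. With FPKM in place of TPM 10 genes passed.

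The genes most like NT5E were sought by the Pearson correlation, over the 12 libraries, of log2(TPM + 1) less the mean of the controls of the same set, among 11003 genes with a mean of at least 5 TPM. They were MFSD14B (r = 0.989), LINC01420 (0.988), RP11-756P10.6 (0.985), EZR (0.985), which encodes the membrane linker ezrin, and MAN2B2 (0.985). The values are a description, since the libraries share controls and the 2 knockout libraries lie far from the rest. Their differences were much smaller than that of NT5E. EZR had means of 232 and 416 TPM in the controls and the knockout label, and MAN2B2 6.38 and 14.7 TPM. In the overexpression set MAN2B2 was at 17.5 TPM in the controls, 14.1 in line 79, 16.7 in line 86 and 13.6 in line 87.

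Some members share their locus with other entries, and whether the counting used strand is not given in the sources used here. ENTPD1 overlaps ENTPD1-AS1 on the other strand, listed at 6.71 to 19.3 TPM, and RP11-429G19.3 on its own strand, at 2.47 to 8.43 TPM, both above ENTPD1. The ADA locus overlaps PKIG on the other strand, at 20.8 to 41.6 TPM. ADORA2A shares its position with SPECC1L-ADORA2A (0.235 to 0.598 TPM) and ADORA2A-AS1 (0 to 0.217 TPM). The levels of ENTPD1, ADORA2A and ADA, its higher value in line 79 included, are therefore uncertain. NT5E and ADORA2B overlap no other entry.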

How the data were processed

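RNA-seq was analysed in 12 libraries of T24 cells. Per the labels and the study's methods, the authors cleaned the reads with fastp, aligned them to hg38 with Hisat2 and ran Stringtie on each library. The labels call the RNA polyadenylated, whereas the methods describe depletion of ribosomal RNA. The authors deposited coverage (mean aligned bases per position), FPKM and TPM per gene. Read counts were not used here, so the study's DESeq2 was not run, and TPM allows no interval for counting error. R 4.3.3 and limma 3.58.1 (eBayes with trend) were applied to log2(TPM + 1) of genes with at least 1 TPM in 2 libraries compared. The study's thresholds, a 1.5-fold change and P under 0.05 before adjustment, defined a call, with Benjamini-Hochberg adjusted P over all genes beside them. Intervals are 95% limma intervals. Fold changes understate low genes. Permutation tests were exact and two-sided. The members and lists were chosen with earlier results of these data known. Named were all members, each list gene past both thresholds (at most 4 per list and direction), the 5 genes most like NT5E, overlapping entries and RNU11; for the differences between lines only the 4 widest are named in the text. The steps were tested on simulated data. Python 3.11.15, numpy 2.4.6, pandas 2.3.3 and matplotlib 3.10.9 were used. Alternatives were a pseudocount of 0.1, FPKM, median ratio scaling, filters, no trend, adjusted P, blocks, line means, left-out libraries and, chosen after seeing the data, rescaling to protein-coding genes other than histones.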

Additional observations from a re-analysis of the deposited data

Results flagged for a closer look

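The values below stand out because limma's F test found a difference between the 3 overexpression line labels at an adjusted P under 0.05. Among the members these were ADA (log2 range between line means 0.773) and ADORA2B (0.532). For members the F test is descriptive, since they were selected on TPM in these libraries. Among the other genes of the lists, 22 passed, 17 of them with a range of at least 1.5-fold. The nucleotidases were ENTPD7 (0.648), NT5C (0.595) and NT5C2 (0.692). The genes of adenosine and AMP metabolism were ADAL (0.746), AK1 (0.845), AK4 (0.887), AK5 (0.691), AK3 (0.389), AMPD3 (0.494) and PNP (0.347). ANKH, which exports pyrophosphate, had a range of 0.792, and the channel gene PANX1 one of 0.498. The receptors were P2RY1 (0.733), P2RY2 (0.895) and P2RY6 (0.881). P2RY6 entered the fit only through lines 79 and 86, where it is high, so nothing is read from its F test. The signalling and response genes were GNAI1 (0.780), SIK1 (0.648), AREG (0.764), DUSP1 (0.603) and ADCY9 (0.430). The peptidases were DPP7 (0.703) and DPP8 (0.631). Across all genes, 14.6% passed the unadjusted test with a 1.5-fold range, and ADORA2B, PANX1, ADCY9, AK3, AMPD3 and PNP were under that fold. In none of the 8 members did a single one of the 6 overexpression libraries stand apart from the rest by Dixon's test, which flags about 1 in 20 groups by chance. The test pools the 3 lines, so it can miss a library that departs only from the other library of its line.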

How the results depend on the processing

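With FPKM in place of TPM the NT5E difference in the knockout label was 2.96, and with median ratio scaling 2.95. FPKM left 1 member past the thresholds over all overexpression libraries, 1 in line 79, 0 in line 86 and 1 in line 87, and 10 list genes that differed between lines; FPKM values are smaller, so the pseudocount of 1 weighs more. A filter of 1 TPM in every library removed ADORA1 by its construction and left 1 member over all overexpression libraries, 0 in line 86 and 1 in line 87, and 1 list gene lower in the knockout label. At an adjusted P under 0.05, 0 members passed over all overexpression libraries and 0 in line 86. With each library left out in turn, where a lone library is assumed to vary like the other groups, the NT5E difference ran from 3.00 to 3.18. The members past the thresholds ran from 0 to 2 over all overexpression libraries, from 1 to 4 in line 79, from 0 to 2 in line 86 and from 1 to 2 in line 87. The lowest counts came without a control, which removes ADORA1 from the test. Over all overexpression libraries NT5E was then not called either. With each library left out in turn, its log2 difference there ran from -0.954 to -0.713. The list genes that rose ran from 3 to 6 in the knockout label, with 3 without knockout replicate 1, and from 0 to 1 in the overexpression label, with 1 (P2RY6) without line 87 replicate 1; those that fell in the knockout label ran from 2 to 3. Differences between lines ran from 16 to 19.

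Values that changed sign lay near 0. ENTPD1 in line 87 was 0.002 with median ratio scaling. With libraries left out in turn, ENTPD1 ran from -0.119 to 0.053 over all overexpression libraries, from -0.127 to 0.044 in line 79, from -0.13 to 0.041 in line 86 and from -0.098 to 0.074 in line 87, and ADORA2B over all overexpression libraries from -0.109 to 0.008.

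The replicate numbers were not taken to pair the samples: deviations correlated across genes at 0.02 between libraries of the same number in the knockout set, and at 0.07 to 0.15 between libraries of the same number prefix in the overexpression set, where the controls do not share the numbers of all lines. With a replicate block (the number in the knockout set, the prefix in the other), 2 members passed the thresholds in the knockout label, 2 over all overexpression libraries, 3 in line 79, 1 in line 86 and 2 in line 87, and 18 list genes differed between lines.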
